A study of Mus musculus with 9 samples.

Results

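Igj and B-lineage genes are 7 listed genes, Igj, Cd79a, Cd79b, Ms4a1, Pou2af1, Ighm and Blnk, measured here in neutrophils sorted from mouse skin, papillomas and skin tumors. A gene was taken when a non-control probe of the array carried its name. By that rule 6 of the 7 genes had a probe, out of 34797 gene names on the array, and these 6 genes had 7 probes among the 55681 of the deposited value table. No probe carried the name Ighm, the heavy chain of IgM, so Ighm has no value here. The genes were put together because Igj stood far lower in lesions than in skin, that is, they were chosen by these values, so their lesion against skin comparisons are described below, and nothing is read from counts of called probes there. Averaged over papillomas against papilloma skin and tumors against tumor skin, the Igj difference was -6.92 on the log2 scale, which ranked 4 from the lowest of 55681 probes.

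Wild-type female FVB/N mice received the carcinogen DMBA at 6 and again at 13 weeks of age. PMA, a tumor promoter, was put on their skin repeatedly from week 1 until week 18 to 20. Gr-1bright neutrophils were sorted from the enzymatically digested tissues to a stated purity above 98%, and all groups come from treated mice. Lesions were digested with collagenase IV, dispase II and DNase I, and skin with collagenase IV, so the digestion differed between lesion and skin. Its part in the results was not tested. The groups were neutrophils of skin next to papillomas (papilloma skin, 2 arrays), of skin next to tumors (tumor skin, 2 arrays), of papillomas (3 arrays) and of tumors (2 arrays). Each of the 9 one-colour arrays held RNA pooled from several mice, so the spread between arrays is a spread between pools, and their small number limits the precision of every value.

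J chain, the product of Igj, is a small polypeptide that links IgM and IgA units into polymers and is made mainly by plasma cells, the antibody-secreting end stage of the B lineage. Cd79a and Cd79b form the signaling pair of the B cell receptor, Blnk is the adaptor that passes its signal on, Ms4a1 is the surface protein CD20 of B cells before the plasma cell stage, and Pou2af1 is a coactivator that joins octamer-binding factors on immunoglobulin promoters.

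The probes below are shown because every value of the 6 genes rests on them. Each has 60 bases, of which the first 30 are printed, and positions are on the mm9 build as the array files give them. The Igj probe lies on chromosome 5 at 88949919 to 88949978, minus strand, and the Cd79b probe on chromosome 11 at 106172780 to 106172839, minus strand. The Pou2af1 probe lies on chromosome 9 at 51048121 to 51048180, plus strand, the Ms4a1 probe on chromosome 19 at 11325367 to 11325426, minus strand, and the Blnk probe on the same chromosome at 41003426 to 41003485, minus strand. Cd79a has a pair of probes on chromosome 7, plus strand, an inner one whose 60 bases span 258 bases of genome from 25684357 to 25684614, and one at the 3' end of the transcript at 25686823 to 25686882.
Igj probe: ctgtactagtctttctcttaacctctcact
Cd79a inner probe: tagaaaacaacatattaaaacgctcctgtg
Cd79a 3' end probe: cctcctcccagatctgtcatggccacttaa
Cd79b probe: agagacttgttggaatctgcaaatggactc
Ms4a1 probe: gctgtgctttgagattctttccaaatggca
Blnk probe: gaagtcatagctggggaggttcggttacta
Pou2af1 probe: gcatccaaacagatttcctccagagcctca

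Promoters are shown for Igj, for Pou2af1, which followed Igj most closely of the set in the deposited table, and for Blnk, which followed Igj least there. RefSeq, which calls Igj by its newer symbol Jchain, matched 6 of the 6 genes, and its promoter table on GRCm38.p6 held 4 of them, with 300 bases from 250 before to 50 after the start. The windows lie at chr5:88527848-88528147 on the minus strand for Jchain, chr9:51213440-51213739 on the plus strand for Pou2af1 and chr19:40994172-40994471 on the minus strand for Blnk. Capitals mark matches on either strand to the octamer ATGCAAAT, the E-box CAGGTG or the PU box GAGGAA, which do not overlap each other.
Jchain promoter: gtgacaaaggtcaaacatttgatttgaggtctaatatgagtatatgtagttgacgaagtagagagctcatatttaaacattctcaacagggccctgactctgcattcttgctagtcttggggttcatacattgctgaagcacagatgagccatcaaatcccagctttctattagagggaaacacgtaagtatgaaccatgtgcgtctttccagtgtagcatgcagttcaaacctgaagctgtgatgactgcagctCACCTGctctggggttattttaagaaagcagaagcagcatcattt
Pou2af1 promoter: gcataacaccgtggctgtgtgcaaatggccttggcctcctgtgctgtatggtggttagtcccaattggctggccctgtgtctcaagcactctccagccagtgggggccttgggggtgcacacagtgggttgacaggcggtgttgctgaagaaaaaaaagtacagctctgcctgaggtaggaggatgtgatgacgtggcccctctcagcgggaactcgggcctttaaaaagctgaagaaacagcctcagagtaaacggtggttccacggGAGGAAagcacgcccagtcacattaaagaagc
Blnk promoter: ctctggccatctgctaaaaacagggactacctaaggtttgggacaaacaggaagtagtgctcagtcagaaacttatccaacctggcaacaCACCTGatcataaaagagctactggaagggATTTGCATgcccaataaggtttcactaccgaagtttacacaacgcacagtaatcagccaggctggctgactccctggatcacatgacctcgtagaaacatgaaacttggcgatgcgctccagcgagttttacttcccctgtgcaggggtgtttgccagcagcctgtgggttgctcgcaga
The Jchain window held an E-box that begins 6 bases after the start, and the Pou2af1 window a PU box 19 bases after it. The Blnk window held an E-box 160 bases before the start and an octamer 130 bases before it. In the window of Cd79a, the other gene with an entry, an E-box began 154 and a PU box 140 bases before the start. Of 32851 promoters of this length, 1.74% held the octamer, 20.2% the E-box and 28.3% the PU box. A match describes these letters only.

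Levels below are the log2 values of the deposited table unless the scanner files are named, and those files were quantile normalized for this comparison. The table's column medians ran from 6.08 to 6.12. Several arrays stood apart before any gene was compared. Spiked-in control RNAs of known amount gave a slope of log signal on log amount of 0.678 on papilloma skin array 1, 0.876 on tumor skin array 1 and 0.894 on tumor array 1, against 1.04 to 1.06 on the other 6 arrays. All of these 3 arrays lay on slide 1. On them 95%, 90.7% and 94.3% of probes in the same order carried the scanner software's mark for well above background, against 43.5% to 63.5% elsewhere, so the mark separates few probes there.

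Some columns of the table also ranked the probes unlike their own scanner file. Spearman's rho, across probes, was 0.588 for papilloma skin 1 and 0.827 for tumor 1 with their own files, while the file of tumor 2 gave 0.924 and 0.947. The column of papilloma 2 came closest to the file of papilloma 3, at 0.981 against 0.936 for its own, and the column of papilloma 3 came closest to the file of papilloma 2, at 0.959 against 0.940. The marks for well above background come from the scanner files, so in these 4 columns a mark may not belong to the table value beside it. The origin of these mismatches was not tested. The differences of the 6 genes are therefore also given from the scanner files. For called probes of the gene lists, the number that kept its call is given from the 7 columns without papilloma skin 1 and tumor 1. Those columns leave 1 array each for papilloma skin and tumors, whose spread is then taken from the other groups, so a lost call is not read as a smaller difference. Of 75 calls in the set and the gene lists below, 27 were lost there, and 27 of these 27 kept their sign, at 0.602 to 1.28 times the difference over 9 columns.

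The brightest 2 genes of the neutrophil list stood at similar levels in every group. S100a9, a calcium-binding alarmin that neutrophils hold in bulk, had group means of 18.55 in papilloma skin, 18.60 in tumor skin, 18.51 in papillomas and 18.59 in tumors. Its partner S100a8 had group means of 18.20, 18.20, 17.91 and 18.11 in the same order. Part of that list was lower in lesions, as described further below, with Ly6g at -2.09 in tumors. Of its 19 probes, 16 were below 0 in papillomas and 17 in tumors, beside 50.75% and 51.74% of all probes. Markers of B cells and plasma cells were near background in part, as counted on the 6 arrays whose slope was above 1. These were papilloma skin 2, tumor skin 2, papillomas 1 to 3 and tumor 2, so most of them were lesions. On these arrays 43.5% to 63.5% of all probes were well above background. One probe of Pax5, the factor that commits cells to the B lineage, was well above background on 0 of the 6 arrays whose slope was above 1, and the other on 3. Tnfrsf17, the plasma cell survival receptor BCMA, was well above background on 1 of them, and Igkc, the kappa constant region, on 1. Tnfrsf17 had group means of 6.66 in papilloma skin, 6.54 in tumor skin, 5.04 in papillomas and 4.81 in tumors. It stood at -1.62 in papillomas and -1.72 in tumors without a call. On all 6 of these arrays 16 of 22 plasma cell probes, 9 of 26 B cell surface probes and 1 of 11 immunoglobulin probes were well above background. Cd22, a B cell sialic acid receptor, was well above background on 9 of 9 arrays, with group means from 10.19 to 10.44. The name B-lineage stands for what the genes are known for, and no cell type is read from it.

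Igj was bright in both skins and dim in both lesions. Its log2 level was 14.53 and 13.24 in papilloma skin, 13.26 and 15.20 in tumor skin, 7.88, 5.78 and 7.87 in papillomas, and 7.08 and 7.13 in tumors. All 5 lesion arrays were under all 4 skin arrays, and the Igj probe was well above background on 9 of 9 arrays. The means were 13.88 ± 0.91 for papilloma skin (SD, n = 2), 14.23 ± 1.37 for tumor skin (SD, n = 2), 7.17 ± 1.21 for papillomas (SD, n = 3) and 7.10 ± 0.04 for tumors (SD, n = 2). From high to low the groups were thus tumor skin, papilloma skin, papilloma and tumor, and the neighbours overlapped within skin and within lesions but not between them. The papilloma mean stood -6.71 from papilloma skin, a 105-fold lower level, and the tumor mean -7.13 from tumor skin, a 140-fold lower level. In these bulk samples, fewer cells of a type and less RNA per cell cannot be told apart.

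The scanner files gave the same order of skin and lesion for Igj. There its log2 level was 12.12 and 13.20 in papilloma skin, 11.62 and 15.56 in tumor skin, 6.91, 8.04 and 4.89 in papillomas, and 6.35 and 7.30 in tumors. No lesion array reached a skin array. The differences were -6.05 for papillomas against papilloma skin and -6.76 for tumors against tumor skin, or 66.2-fold and 109-fold. Papilloma 2 was the lowest papilloma in the table and the highest in the scanner files, and papillomas 2 and 3 are the columns that came closest to each other's file. Without papilloma skin 1 and tumor 1, the table gave -6.07 and -7.10. Within slide 1 the scanner difference was -5.21 for papilloma minus papilloma skin and -5.27 for tumor minus tumor skin, and within slide 2 it was -5.16 for papilloma minus papilloma skin. Scaled to the 75th percentile instead, these came to -3.53, -4.31 and -5.69. On slide 3 the papilloma minus tumor skin difference was -10.67, or -11.94 with that scaling. With slide as a term in the model, the differences for papillomas and tumors were -6.01 and -7.23 in the scanner files and -7.25 and -6.06 in the table.

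**Figure D1:**
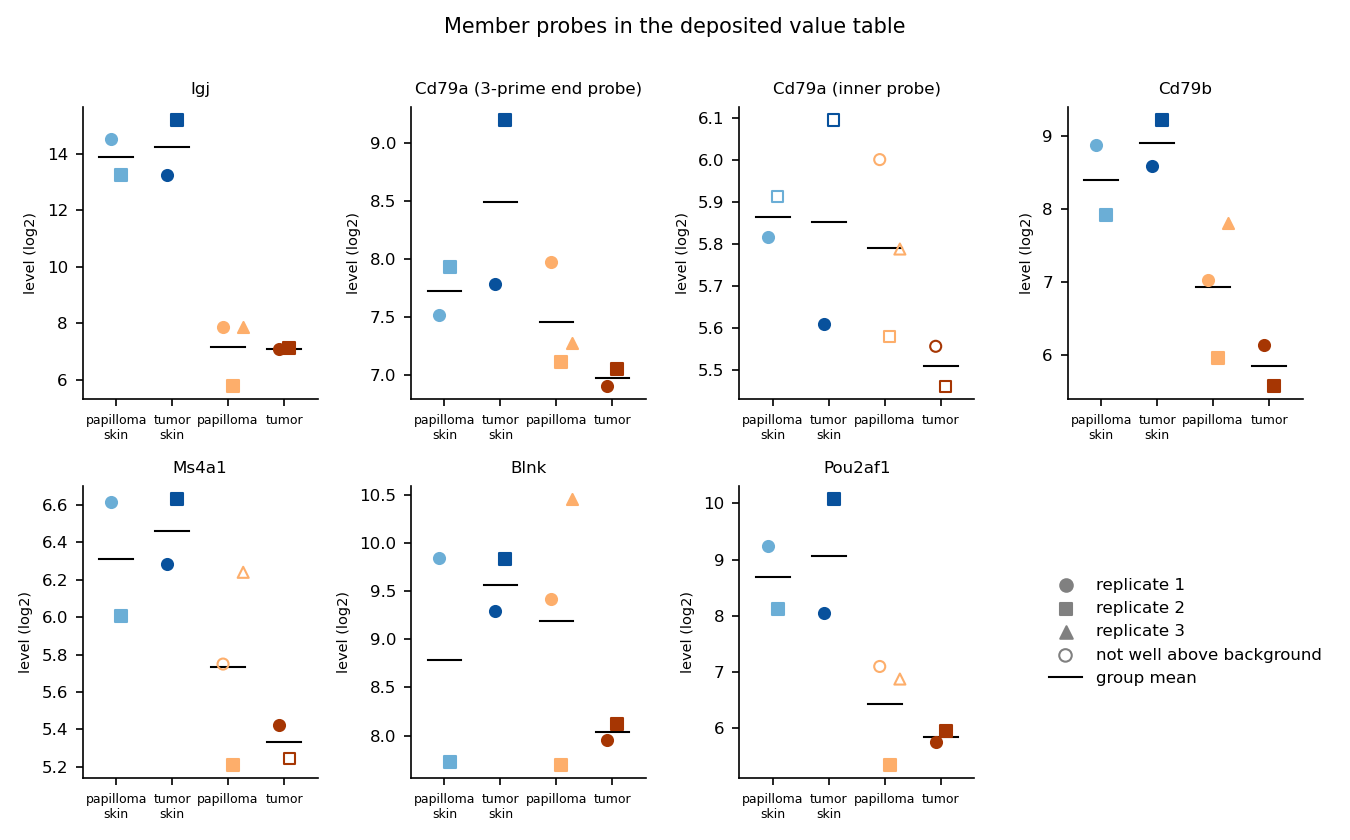
Log2 level of each of the 7 probes in the deposited table, by group, with 1 point per array (symbols for replicates 1 to 3), open symbols where the probe was not well above background in the scanner file of that array and a line at the group mean. Igj has a skin range of 13.24 to 15.20 and a lesion range of 5.78 to 7.88, while Blnk overlaps between papilloma skin and papillomas.

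Cd79b and Cd79a, the receptor's signaling pair, were read by 3 probes. Cd79b had a log2 level of 8.88 and 7.92 in papilloma skin, 8.59 and 9.22 in tumor skin, 7.02, 5.96 and 7.81 in papillomas, and 6.13 and 5.57 in tumors. Every lesion array was below every skin array of its own stage. Its means were 8.40 ± 0.68 for papilloma skin (SD, n = 2), 8.91 ± 0.44 for tumor skin (SD, n = 2), 6.93 ± 0.93 for papillomas (SD, n = 3) and 5.85 ± 0.39 for tumors (SD, n = 2). The lesion mean was thus -1.47 from skin for papillomas and -3.06 for tumors, 2.77-fold and 8.33-fold lower. Tumor 2 lay under the median of its table column, and on tumor 1 the mark for well above background separates few probes. How far background sets the tumor fold was not tested. In the scanner files the Cd79b levels of lesion and skin overlapped at both stages, with differences of -1.86 and -1.98. Within slides the scanner differences did not keep 1 sign, with -2.87 for papilloma minus papilloma skin on slide 1, 0.09 for the same pair on slide 2 and 0.10 for tumor minus tumor skin on slide 1. With slide as a term the scanner differences were -1.85 and -2.16.

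The Cd79a probe at the 3' end was well above background on 9 of 9 arrays. Its log2 level was 7.52 and 7.93 in papilloma skin, 7.79 and 9.20 in tumor skin, 7.98, 7.11 and 7.28 in papillomas, and 6.90 and 7.05 in tumors. Papillomas overlapped papilloma skin, while both tumors lay below both tumor skin arrays. Its means were 7.72 ± 0.29 for papilloma skin (SD, n = 2), 8.49 ± 1.00 for tumor skin (SD, n = 2), 7.46 ± 0.46 for papillomas (SD, n = 3) and 6.98 ± 0.10 for tumors (SD, n = 2). The differences were -0.27 for papillomas and -1.52 for tumors, and the scanner files turned the first to 1.16 and gave -1.94 for the second. Tumors overlapped tumor skin in the scanner files. In the table the tumor difference was -0.81 without tumor skin 2 and -2.22 without tumor skin 1. The inner Cd79a probe was well above background on papilloma skin 1 and tumor skin 1 alone, a pair of the arrays with a low spike-in slope. Its table levels ran from 5.46 to 6.09 over the 9 arrays, with differences of -0.07 and -0.34. The scanner levels of lesion and skin overlapped for this probe, so no fold is given.

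Ms4a1, which marks B cells and is lost in plasma cells, was dim in all groups. Its log2 level was 6.61 and 6.01 in papilloma skin, 6.28 and 6.63 in tumor skin, 5.75, 5.21 and 6.24 in papillomas, and 5.42 and 5.24 in tumors. The probe was not well above background in the scanner files of papillomas 1 and 3 and of tumor 2, and papillomas overlapped papilloma skin. The group means were 6.31 ± 0.43 for papilloma skin (SD, n = 2), 6.46 ± 0.25 for tumor skin (SD, n = 2), 5.73 ± 0.51 for papillomas (SD, n = 3) and 5.33 ± 0.13 for tumors (SD, n = 2). Lesion means stood -0.58 from skin for papillomas and -1.13 for tumors, or -0.92 and -1.93 in the scanner files, where both pairs overlapped.

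Blnk, the adaptor, was the gene of the set that resembled Igj least in the table. Its log2 level was 9.85 and 7.73 in papilloma skin, 9.30 and 9.83 in tumor skin, 9.42, 7.69 and 10.46 in papillomas, and 7.96 and 8.12 in tumors. Its highest array of all was a papilloma, and papillomas spanned the whole papilloma skin range. The means were 8.79 ± 1.5 for papilloma skin (SD, n = 2), 9.56 ± 0.38 for tumor skin (SD, n = 2), 9.19 ± 1.40 for papillomas (SD, n = 3) and 8.04 ± 0.11 for tumors (SD, n = 2). The difference was 0.40 for papillomas and -1.52 for tumors, against -0.82 and -0.35 in the scanner files. Blnk is also used by cells outside the B lineage, macrophages among them.

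Pou2af1, the octamer coactivator that is on in B cells and plasma cells, came closest to Igj in the table. Its log2 level was 9.23 and 8.13 in papilloma skin, 8.05 and 10.08 in tumor skin, 7.10, 5.34 and 6.87 in papillomas, and 5.75 and 5.95 in tumors. Lesion arrays all lay below the skin arrays of their stage, and the scanner files of papillomas 1 and 3 did not have the probe well above background. Were papillomas 2 and 3 exchanged between table and files, that mark would pass from the column at 5.34 to the one at 6.87, and for Ms4a1 from 5.21 to 6.24. The means were 8.68 ± 0.78 for papilloma skin (SD, n = 2), 9.06 ± 1.43 for tumor skin (SD, n = 2), 6.44 ± 0.95 for papillomas (SD, n = 3) and 5.85 ± 0.15 for tumors (SD, n = 2). Papillomas stood -2.24 from papilloma skin and tumors -3.21 from tumor skin, 9.28-fold lower. No fold is given for papillomas since 1 of 3 was well above background. Both tumor levels lay under the medians of their table columns, and on tumor 1 the mark separates few probes. How far background sets the tumor fold was not tested. In the scanner files the papilloma and tumor differences were -1.01 and -3.57, and papillomas overlapped papilloma skin there. Within slide 1 the papilloma difference was 0.29, within slide 2 it was -1.45, and the tumor difference within slide 1 was -1.65. Scaled to the 75th percentile these came to -1.36, -1.79 and -1.0, so the positive value on slide 1 came with quantile normalization and not with this scaling. With slide as a term they were -1.31 and -3.76. In the table the tumor difference was -2.20 without tumor skin 2 and -4.23 without tumor skin 1.

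**Figure D2:**
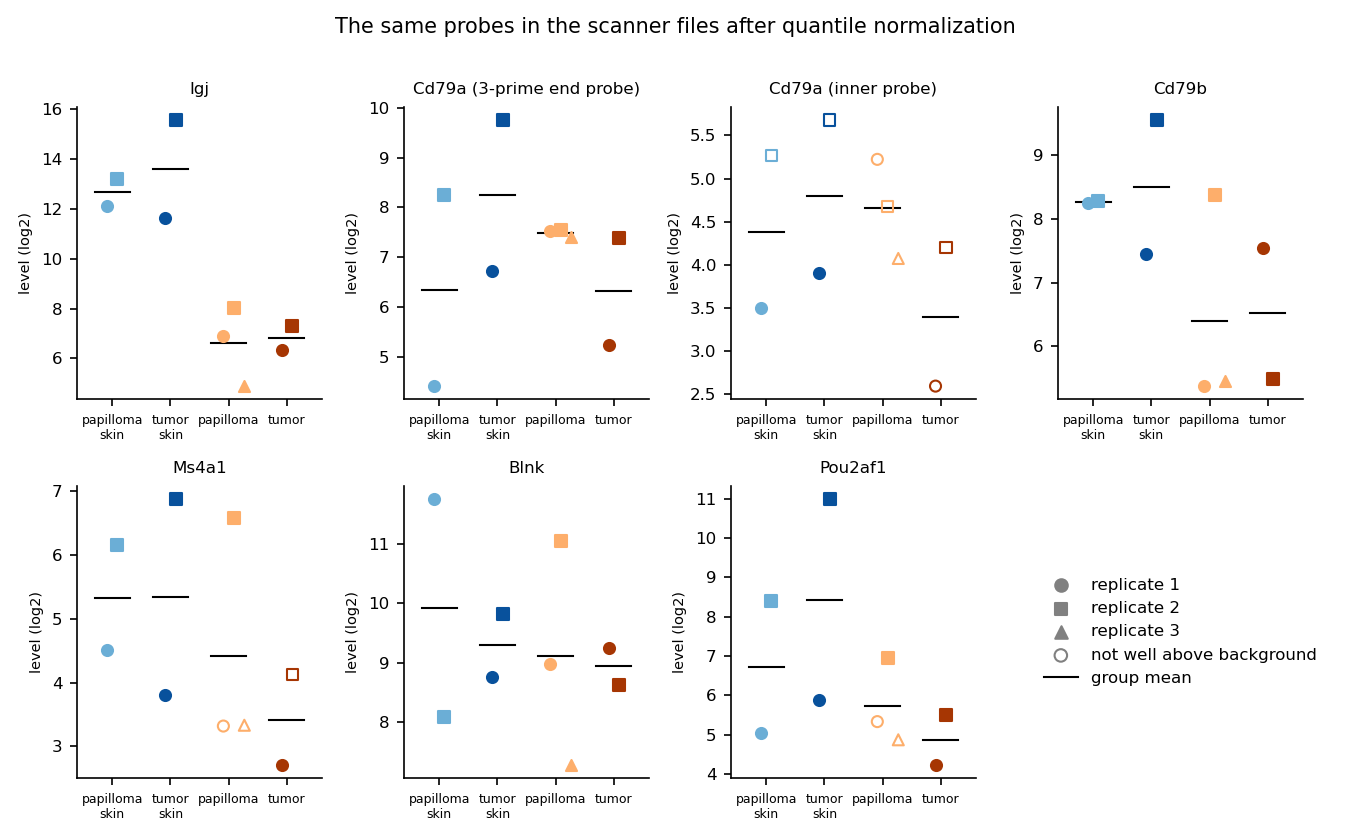
Log2 level of the same 7 probes in the scanner files after quantile normalization, drawn by group and array as in the plot of the deposited table. Lesion arrays stay below skin arrays for Igj, while papillomas overlap papilloma skin for the other 6 probes.

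In the order of group means, tumor skin came first and tumors last for 5 of the 6 other probes, the inner Cd79a probe being the exception, with tumor skin -0.01 from papilloma skin. This is the order in the table. Papillomas overlapped tumors for Igj, Cd79b, Ms4a1, Blnk and Pou2af1, and papilloma skin overlapped tumor skin for all 7 probes. Both Cd79a probes put every tumor below every papilloma, which in the scanner files held for the 3' end probe and not for the inner one. Between tumors and papillomas the limma adjusted p was 0.519 for the inner probe and 0.615 for the 3' end probe. How many of all probes separate groups this small was not counted, so nothing is read from these overlaps. The inner probe was not well above background on any lesion array, so nothing is read from its order there.

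For the lesion against skin comparisons, counts are given beside those of all probes and nothing is read from them, since Igj chose the set there. A probe was called at a limma adjusted p of at most 0.05 over all 55681 probes, an absolute log2 difference of at least 1 and a mean level of at least 6, a level that 5 of the 7 probes reached. Against papilloma skin, 1 of 7 probes was called lower in papillomas, that of Igj, beside 557 of all probes or 1%. Against tumor skin, 3 of 7 were called lower in tumors, those of Igj, Cd79b and Pou2af1, beside 839 or 1.51%. In the 7 columns without papilloma skin 1 and tumor 1, Igj stood at -6.07 in papillomas and at -7.10 in tumors. Cd79b stood at -3.34 and Pou2af1 at -3.11 in tumors there. Some of these calls were lost in that fit, which leaves 1 array in a group. From the scanner files limma called 0 of 55155 probes in either comparison, with 4967 at an unadjusted p under 0.05 for papillomas and 1437 for tumors.

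The comparisons between stages did not choose the genes and were tested with limma. They ask whether neutrophils of tumors differ from those of papillomas, whether the adjacent skins differ, and whether the gap between lesion and skin changes with stage. Between tumors and papillomas limma called 0 of the 7 probes at the adjusted threshold and 0 at an unadjusted p under 0.05, beside 249 called of all probes, or 0.447%. Igj differed by -0.07, with a 95% interval from -1.83 to 1.68 (limma adjusted p 0.974), and the scanner files gave 0.21. Within slides the Igj value in the scanner files was -0.56 on slide 1 and -0.74 on slide 2, or 0.17 and -0.88 when scaled to the 75th percentile. With slide as a term it was 0.17 in the scanner files and 0.47 in the table. Cd79b differed by -1.08, with an interval from -2.27 to 0.11 (limma adjusted p 0.39), and by 0.12 in the scanner files. For the 3' end probe of Cd79a the difference was -0.48, with an interval from -1.42 to 0.46 (limma adjusted p 0.615), and the scanner files gave -1.18. Blnk differed by -1.15, with an interval from -3.0 to 0.70 (limma adjusted p 0.541), and by -0.17 in the scanner files. The intervals are wide, and for Igj they leave room for a difference of over 1 in either direction. All 7 point values were below 0 in the table, beside 52.08% of all probes, while Igj and Cd79b turned positive in the scanner files. Nothing is read from this count.

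Between tumor skin and papilloma skin limma again called 0 of the 7 probes, with 0 at an unadjusted p under 0.05, beside 145 called of all probes, or 0.26%. Igj was 0.34 higher in tumor skin, with an interval from -1.58 to 2.27 (limma adjusted p 0.828). The scanner files gave 0.93, or 1.39 with slide as a term, and a slide term in the table gave -0.72. Scaled to the 75th percentile, the scanner files gave 1.72. Over all alternatives the value ran from -0.72 to 2.40. The pair on slide 1 gave -0.50 with quantile normalization and 0.95 scaled to the 75th percentile. The 3' end probe of Cd79a was 0.77 higher, with an interval from -0.26 to 1.79 (limma adjusted p 0.33), and 1.91 higher in the scanner files. Pou2af1 was 0.38 higher, with an interval from -1.34 to 2.11 (limma adjusted p 0.783), and 1.71 higher in the scanner files. Blnk was 0.78 higher, with an interval from -1.25 to 2.81 (limma adjusted p 0.619), and turned to -0.63 in the scanner files. Cd79b was 0.51 higher, with an interval from -0.80 to 1.81 (limma adjusted p 0.615).

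The gap between lesion and skin at the tumor stage, minus the same gap at the papilloma stage, gave 0 of 7 probes called by limma and 0 at an unadjusted p under 0.05, beside 15 called of all probes, or 0.0269%. For Igj this stage difference was -0.42, with an interval from -3.02 to 2.19 (limma adjusted p 0.902), and -0.71 in the scanner files. It was -1.59 for Cd79b, with an interval from -3.36 to 0.18 (limma adjusted p 0.387), and -0.12 in the scanner files. It was -1.25 for the 3' end probe of Cd79a, with an interval from -2.64 to 0.14 (limma adjusted p 0.386), and -3.10 in the scanner files. It was -0.97 for Pou2af1, with an interval from -3.30 to 1.36 (limma adjusted p 0.703), and -2.56 in the scanner files. For Blnk, the largest of the 7, it was -1.93, with an interval from -4.67 to 0.82 (limma adjusted p 0.494), and 0.47 in the scanner files. Over all 55681 probes, 8032, 12656 and 8174 had an unadjusted p under 0.05 in these 3 comparisons in the order given. With slide as a term, the Igj stage difference became 1.19 in the table and -1.22 in the scanner files. Without tumor skin 2 it was 0.56, and without tumor skin 1 it was -1.39.

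**Figure D3:**
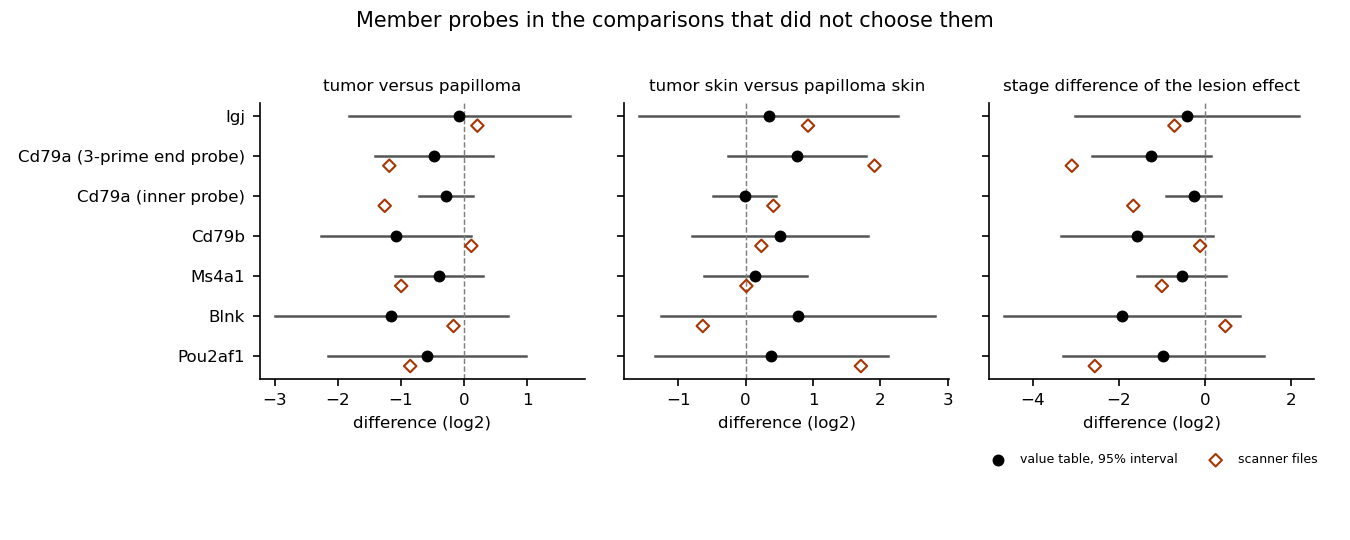
Log2 difference of each of the 7 probes in the 3 tested comparisons, as points with 95% intervals from the deposited table and open diamonds from the scanner files. The interval of every probe includes 0 in all 3 comparisons.

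Across the 9 columns, Pou2af1 had a Pearson r with Igj of 0.954 in the table and 0.776 in the scanner files. For Cd79b these were 0.908 and 0.792, for Ms4a1 0.864 and 0.683, and for the 3' end probe of Cd79a 0.717 and 0.318. For Blnk they were 0.386 and 0.321. Pou2af1 was thus highest and Blnk lowest in the table, while in the scanner files Cd79b was highest and the 3' end probe of Cd79a lowest. The 9 points fall into 4 skin and 5 lesion columns, so r mostly reflects that split, and no p is given.

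Among 3309 probes with a mean level of at least 6 and a range of at least 2, the 8 genes whose levels followed Igj most closely had r from 0.968 to 0.986 over the 9 columns. First came Cybb, the membrane chain of the phagocyte NADPH oxidase, at the upper end. Its group means were 9.60 in papilloma skin, 9.37 in tumor skin, 7.50 in papillomas and 7.15 in tumors, and its r in the scanner files was 0.556. Ly6c1, a surface protein of monocytes and other leukocytes, had r of 0.983, with means of 12.78, 13.11, 10.76 and 10.59 in the same order. Retnla, a secreted protein of alternatively activated macrophages and eosinophils, had r of 0.968, with means of 13.57, 12.98, 8.63 and 8.00. Ear11, a ribonuclease of the eosinophil-associated family, had r of 0.969 in the table and 0.917 in the scanner files, with means of 11.59, 10.74, 8.43 and 8.02. The others were Cacna1s, a calcium channel subunit, at 0.977, Sytl1, which acts in vesicle transport, at 0.972, Nhsl2 at 0.969 and Tbxas1, thromboxane synthase, at 0.969. Likeness over 9 columns that split into skin and lesion is a description and says nothing of shared control.

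**Figure D4:**
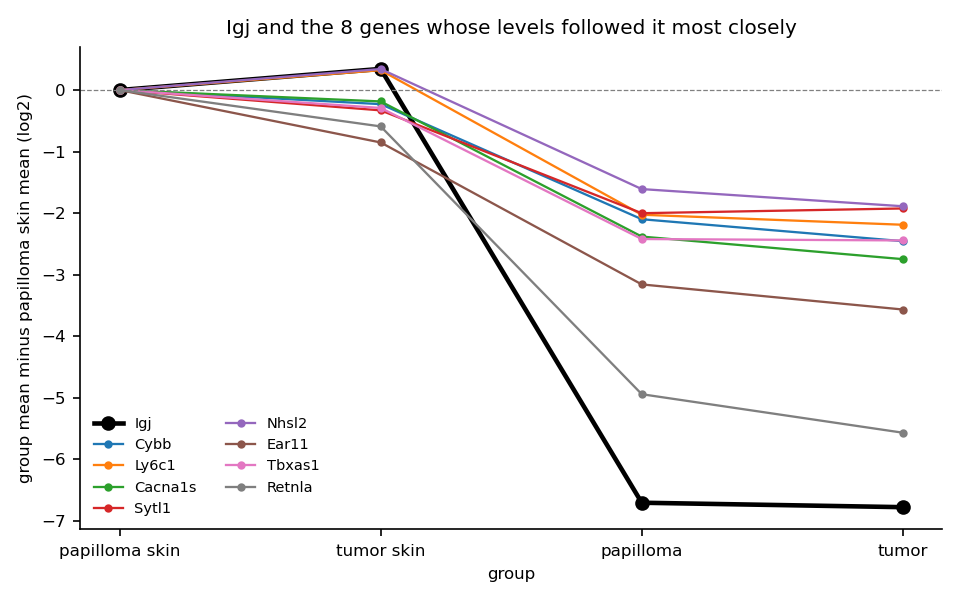
Group mean minus papilloma skin mean, on the log2 scale, for Igj and the 8 genes with the highest Pearson r to it over the 9 columns of the table. All lines lie lower in lesions than in skin, with Igj lowest in papillomas and tumors.

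Wider lists of the B lineage are set beside the median of all probes and not beside Igj, which was chosen for its low value in lesions. Over all probes the median difference was -0.01 for papillomas against papilloma skin and -0.02 for tumors against tumor skin. The medians over the 7 probes of the set, which these comparisons chose, were -0.58 and -1.52. The immunoglobulin list, 9 genes with 11 probes of which 5 reached the level of 6, had medians of -0.27 and -0.50. In it 1 probe was called lower in papillomas and 2 in tumors, and each of these was a probe of Igh-VJ558, a heavy chain variable region, at -4.92 in papillomas and at -2.44 and -3.53 in tumors. The papilloma call was kept in the 7 columns and 0 of the 2 tumor calls were, with differences of -2.09 and -3.41 there. Averaged over its probes, Igh-VJ558 had a level of 9.15 in papilloma skin, 8.48 in tumor skin, 5.95 in papillomas and 5.49 in tumors. Igkv4-72, a kappa variable region and the only probe of the list well above background on 9 of 9 arrays, had levels of 8.98, 9.39, 8.65 and 8.29 in the same order. Ighv14-2 had levels of 6.78, 6.90, 6.26 and 5.85. Igh-V3660 had levels of 7.10, 6.59, 6.21 and 6.14. Igkv4-53 had levels of 5.49, 6.70, 5.38 and 5.32 over its pair of probes, and Igkv4-55 of 5.33, 5.40, 5.38 and 5.33. The scanner medians of this list were -0.85 and -1.21, so both sources gave it medians below 0.

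The plasma cell list was split. Of its 22 probes from 19 genes, 2 were called lower and 1 higher in papillomas, and 3 lower and 1 higher in tumors. In the 7 columns 0 of these papilloma calls and 2 of the tumor calls were kept, those of Derl3 and Sec11c. Derl3, which helps clear misfolded proteins from the endoplasmic reticulum, differed by -2.07 in papillomas and -3.09 in tumors. Sec11c, a signal peptidase subunit, differed by -1.26 and -1.56, or -0.22 and -1.41 in the scanner files. The tumor call added 2010001M09Rik, the array's name for Mzb1, a chaperone of antibody assembly, at -3.15, with group means of 8.95, 8.82, 6.63 and 5.67. The probe called higher was Prdm1, the plasma cell master factor Blimp-1 that other leukocytes also use, at 1.05 and 1.17. Xbp1, which drives secretory capacity in plasma cells and is used in other cells too, was the brightest gene of the list, with means of 13.80, 13.95, 14.74 and 15.08. Hsp90b1, an endoplasmic reticulum chaperone, differed by 0.11 over both stages. The list's medians were -0.31 and -0.38 in the table and 0.15 and -0.10 in the scanner files.

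The B cell surface and receptor list held 26 probes from 20 genes. In papillomas 2 were called lower, both of Bank1, a scaffold of the B cell receptor, at -2.68 and -2.63. In tumors 4 were called lower, the same Bank1 probes at -2.08 and -1.26 and a pair of probes of Cd37, a tetraspanin of B cells and other leukocytes, at -1.40 and -1.49. In the 7 columns 2 of 2 papilloma calls and 3 of 4 tumor calls were kept, a Bank1 probe losing its call. Ly6d, a surface protein of early B cells and keratinocytes, had levels of 10.07, 10.48, 11.31 and 10.49 from papilloma skin to tumor. The list's medians were 0.02 and -0.29, or 0.31 and -0.37 in the scanner files. In the B lineage transcription factor list, 0 of 19 probes from 12 genes were called in either comparison, with medians of 0.14 and -0.37, or 0.86 and -0.23 in the scanner files. Irf4, needed for plasma cells, had means of 7.50, 7.13, 6.64 and 5.88. Irf8, a factor of B cells and of myeloid precursors, had means of 10.12, 9.86, 10.31 and 7.74. Bcl6, the germinal centre repressor that neutrophils also express, was the brightest, at 13.01, 13.67, 13.15 and 13.16.

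B cell receptor signaling genes, many of which neutrophils use as well, gave 1 probe called lower and 2 higher of 24 in papillomas, and 4 lower and 0 higher in tumors. Plcg2, the phospholipase of the pathway, was lower in both, at -1.16 and -1.41, with means of 13.53, 13.86, 12.37 and 12.45. In tumors the pair of Prkcb probes, a protein kinase C, stood at -1.43 and -1.31, and Pik3cd, a lipid kinase subunit, at -1.34. In papillomas Pik3ap1, an adaptor of lipid kinase, stood at 1.25 and a probe of Syk, the kinase next to the receptor, at 1.08. In the 7 columns Plcg2 kept its call in both and Prkcb in tumors, while Pik3cd, Pik3ap1 and Syk did not. By the median over each gene's probes Ptpn6 and Vav1 had the highest levels, and they differed by -0.32 and 0.37 over both stages. The most abundant single probe on each array was one of Syk or Vav1. The list's medians were -0.17 and -0.50, or 0.10 and -0.08 in the scanner files. Plasmacytoid dendritic cell genes, a list included since these cells share factors with B cells, gave 0 calls of 19 probes in papillomas and 2 lower in tumors, Pacsin1 at -1.06 and Lair1 at -1.19, of which 0 kept their call in the 7 columns. Its medians were 0.44 and -0.42, or 1.40 and -0.13 in the scanner files. Its sums ran from 114700 to 153000 over the 9 arrays, led by 1 Siglech probe with a mean level of 16.82. The other Siglech probes had mean levels of 6.25 and 7.27, so the sums mostly reflect that 1 probe. Calls higher in lesions made up 2.18% of all probes for papillomas and 2.71% for tumors.

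**Figure D5:**
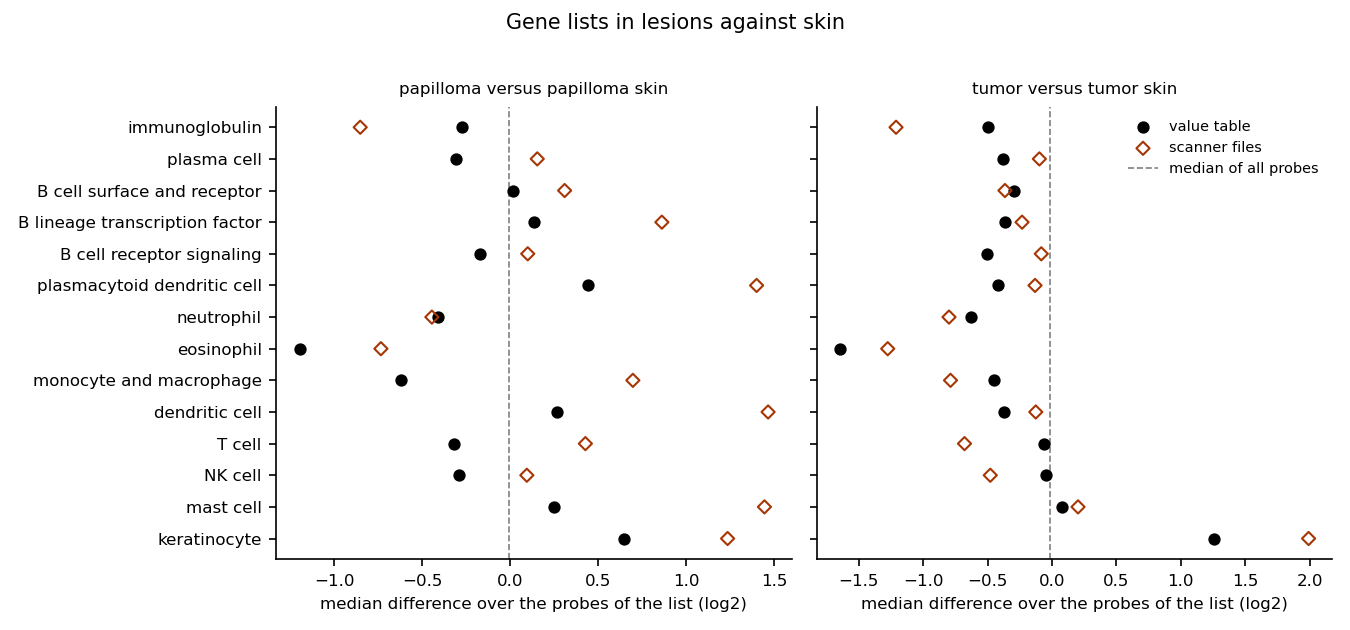
Median log2 difference over the probes of each gene list for papillomas against papilloma skin and tumors against tumor skin, with black dots from the deposited table, open diamonds from the scanner files and a dashed line at the median of all probes. The immunoglobulin, neutrophil and eosinophil lists lie left of the line in both sources and both comparisons.

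In the 3 tested comparisons limma called 0 probes of the immunoglobulin, plasma cell, B cell surface, transcription factor, receptor signaling and plasmacytoid dendritic cell lists. At an unadjusted p under 0.05, tumors against papillomas gave 0 of 11 immunoglobulin probes, 2 of 22 plasma cell, 5 of 26 B cell surface, 8 of 19 transcription factor, 1 of 24 receptor signaling and 13 of 19 plasmacytoid dendritic cell probes. The medians there were -0.15, -0.23, -0.29, -0.49, 0.03 and -0.99 in the same order, against -0.02 over all probes. Between the skins the same lists gave 2, 2, 5, 1, 4 and 3 probes with an unadjusted p under 0.05, and for the stage difference 1, 1, 8, 2, 2 and 5. Over all 55681 probes, 8032, 12656 and 8174 had such a p between lesions, between skins and for the stage difference. The counts of the lists carry no call after adjustment over all probes.

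Some markers of other cells also differed between skin and lesions. The stain used for the sort also held antibodies to CD3, CD11c, B220, NKp46 and MHC class II, and the gate set on each could not be read here. Of 11 eosinophil probes from 10 genes, 6 were called lower in papillomas and 6 lower and 2 higher in tumors. Those lower in both were the ribonucleases Ear1, Ear2, Ear6 and Ear10, the chemokine receptor Ccr3 and the interleukin-5 receptor chain Il5ra. Ear2 had means of 12.97, 11.88, 9.10 and 8.58, and the probes higher in tumors were the pair of Siglec5, at 1.38 and 1.59. At each stage 6 of 6 lower calls were kept in the 7 columns, and in tumors 0 of 2 higher ones, which stood at 1.31 and 1.64 there. The defining marker Epx, eosinophil peroxidase, was well above background on 0 of the 6 arrays whose slope was above 1. Summed on the linear scale, the eosinophil list came to 20910 and 16240 in papilloma skin, 11410 and 11370 in tumor skin, 4579, 5746 and 5829 in papillomas, and 10070 and 8980 in tumors. The list's medians were -1.19 and -1.64, or -0.73 and -1.28 in the scanner files. Ear2 was its most abundant gene in skin and Siglec5 in lesions. Its part in the Igj result was not tested.

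For the B cell surface list the sums were 15700 and 20070 in papilloma skin, 24550 and 31310 in tumor skin, 22610, 16120 and 19180 in papillomas, and 15250 and 15700 in tumors. Cd37 or Fcrl5, an Fc receptor-like protein, was the most abundant gene on each array, and the sums of papillomas overlapped those of papilloma skin. The plasma cell list, led by Xbp1 on every array, summed to 43690 and 32300 in papilloma skin, 35990 and 36690 in tumor skin, 47010, 41710 and 59800 in papillomas, and 60090 and 45780 in tumors. The immunoglobulin sums were 3541 and 3197 in papilloma skin, 1462 and 2841 in tumor skin, 1150, 763 and 898.7 in papillomas, and 771.3 and 744 in tumors. Igh-VJ558 led it in papilloma skin and Igkv4-72 in the other groups, and every lesion array was below every skin array. The part of B cells or plasma cells in the Igj result was not tested.

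Of 16 monocyte and macrophage probes from 11 genes, 2 were called lower in each comparison, both of Emr1, which codes for F4/80. Emr1 stood at -2.94 and -3.09 in papillomas and -2.17 and -2.04 in tumors, and kept its calls in the 7 columns. The list's sums, led by Csf1r, were 65270 and 57860 in papilloma skin, 51030 and 48040 in tumor skin, 44700, 44240 and 50030 in papillomas, and 46830 and 41450 in tumors. Its medians were -0.62 and -0.45, but 0.70 and -0.79 in the scanner files. Of 15 dendritic cell probes, Itgax was called higher in papillomas at 1.87 and H2-Ab1 lower in tumors at -2.33, of which Itgax kept its call in the 7 columns, with sums from 19640 to 37990 in skin and from 18060 to 51310 in lesions.

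T cell probes gave 0 calls in papillomas and 1 of 15 in tumors, Cd3d at -1.41. NK cell probes gave 1 of 13 in papillomas, a probe of Nkg7 at -2.14, and 0 in tumors. Cd3d kept its call in the 7 columns, and this Nkg7 probe did not and stood at 0.16 in the scanner files. A brighter Nkg7 probe, with a mean level of 10.88, stood at -0.27 in papillomas without a call. T cell sums, led by Cd4, ran from 11030 to 12620 in skin and from 8064 to 10350 in lesions. NK cell sums, led by Nkg7, ran from 2321 to 3687 and overlapped between skin and lesions. Mast cell probes gave 0 of 11 in both comparisons, with sums led by Hdc from 135900 to 184600. Keratinocyte probes gave 3 of 18 called higher in papillomas, of Krt6a and Krt6b, and 4 in tumors, which added Krt14. Of these calls 2 of 3 and 3 of 4 were kept in the 7 columns. Keratinocyte sums were 16290 and 10430 in papilloma skin, 9356 and 18920 in tumor skin, 43900, 21480 and 19530 in papillomas, and 22180 and 71760 in tumors, led by Trp63, Krt5 or Krt6b. The list's medians were 0.65 and 1.26, or 1.23 and 1.99 in the scanner files. In the tested comparisons the calls in these lists were Emr1 at -1.12 and H2-Eb1 at -1.08 between the skins, and H2-Eb1 at -1.30 and Gata2 at -2.01 between tumors and papillomas. In the 7 columns 0 of these calls were kept, and the scanner files gave 0.78 for Emr1 and 0.38 for H2-Eb1 between the skins, and -1.11 for H2-Eb1 and -2.65 for Gata2 between the lesions. The part of these cells in the Igj result was not tested.

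Part of the neutrophil list was lower in lesions as well. Of 19 neutrophil probes from 15 genes, 6 were called lower in papillomas and 7 in tumors, and none higher. In the 7 columns 5 of 6 papilloma calls and 7 of 7 tumor calls were kept. Camp, the precursor of the antimicrobial peptide cathelicidin, had means of 15.31, 15.16, 11.17 and 11.44 from papilloma skin to tumor. Ngp, a protein of secondary granules, had means of 13.82, 14.56, 10.55 and 11.17. Ltf, lactoferrin of the same granules, stood at -2.46 in papillomas and -2.31 in tumors, and Mmp8, a granule collagenase, at -1.95 and -1.92. Mpo was called in papillomas alone at -2.28, where the scanner files gave 1.47, and Ly6g and Lcn2 in tumors alone at -2.09 and -1.46. The other Mpo probe, whose mean level of 5.97 was under 6, stood at -2.28 in papillomas without a call. The scanner files gave -1.38 for that probe. The list's medians were -0.41 and -0.63, or -0.44 and -0.80 in the scanner files. Its sums, led by S100a9, were 1153000 and 1181000 in papilloma skin, 1402000 and 1365000 in tumor skin, 915200, 908800 and 903400 in papillomas, and 1042000 and 1001000 in tumors. The granule genes Elane and Mmp9 were not called, and neither had 1 sign over both stages. Elane stood at 0.48 in papillomas and -0.33 in tumors, and Mmp9 at -0.32 and 0.49, with the same signs in the scanner files. The relation of these genes to the Igj result was not tested.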

How the data were processed

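Total RNA of sorted neutrophils was hybridized to 9 one-colour Agilent arrays on 3 slides. The deposited value table holds log2 values for 55681 probes. By the study's methods the authors quantile normalized the signals with limma and removed the effect of the chips, and which of these steps the deposited log2 table holds is not stated. The deposited scanner files hold spot intensity from Feature Extraction 10.7.3.1, and 55155 probes had all values there. No spot was saturated.

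The limma package (3.58.1, in R 4.3.3) was fitted to all 55681 probes of the table with 4 group means, 5 residual degrees of freedom and Benjamini-Hochberg adjustment over all probes, after a test on simulated data. Scanner signals were quantile normalized on the log2 scale. Alternatives were scaling to the 75th percentile, normexp with an offset of 50, slide or replicate number as a term, dim-probe and level filters, genes as the unit, fewer columns and each array left out. Exchanging the slides of papillomas 2 and 3 and the differences within slides were added after the data were seen.

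Named were the genes of the set, up to 6 immunoglobulin genes and the 8 genes most like Igj. For each other list, genes were taken from the brightest and from those with the largest lesion minus skin difference. Not all of these are named. Left out were, among others, Ccr2 at -2.14, Tpsab1 at 1.44 and Fcer1a at 1.13 over both stages. Other genes named where few were called were chosen after their values were seen. The genes and lists were chosen with earlier results of these data known.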

Additional observations from a re-analysis of the deposited data

How the results depend on the processing

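Igj kept its direction in papillomas against papilloma skin, from -7.35 to -5.07, and in tumors against tumor skin, from -8.92 to -6.01, under every refit of the groups. Within slides it was lower too, from -5.69 to -3.53 for papilloma minus papilloma skin and from -5.27 to -4.31 for tumor minus tumor skin over both scalings. In the tested comparisons its lowest adjusted p over the alternatives was 0.571 between lesions, 0.523 between skins and 0.557 for the stage difference. The dim-probe filter changed the side of the threshold of no result, and for the reversals below the cause was not tested.

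From the scanner files, 0 probes were called in each of the 5 comparisons under every scaling, with limma. With quantile normalization, 1278 probes had an unadjusted p under 0.05 between lesions, 681 between skins, 1078 for the stage difference, 4967 in papillomas and 1437 in tumors. It gave Igj 0.21 and Cd79b 0.12 between lesions, Cd79a inner probe 0.41 and Blnk -0.63 between skins, and Blnk 0.47 for the stage difference. A slide term gave 0.17, 0.10, 0.69 and -0.21 for the first 4 of these. Scaling to the 75th percentile gave Igj 0.68, Cd79b 0.29, Ms4a1 0.048 and Pou2af1 0.13 between lesions and Cd79a inner 0.36 between skins. Normexp gave Igj 0.018 between lesions, -5.07 in papillomas and -6.01 in tumors, Cd79a inner 0.17 and Blnk -0.70 between skins, and Blnk 0.59 for the stage difference. The 6 arrays whose slope was above 1 gave Igj 0.83 between lesions and -8.92 in tumors, and Cd79a inner 0.50 between skins.

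In the table, a slide term gave Igj 0.47 between lesions, -0.72 between skins, 1.19 for the stage difference and -6.06 in tumors. It gave Blnk -0.34, Cd79b -0.32, Ms4a1 -0.31 and Pou2af1 -0.49 between skins, and Ms4a1 0.14 and Pou2af1 0.37 for the stage difference. Its counts called were 0 between lesions, 0 between skins, 0 for the stage difference, 307 lower in papillomas and 39 lower in tumors. With the slides of papillomas 2 and 3 exchanged, an alternative added after the data were seen, they were 0, 0, 0, 148 and 31. Deviations of same-numbered arrays from their group means had r from -0.957 to 0.376 over 9 distinct values, 2 of them above 0.1. In groups of 2 the deviations mirror each other, so whether such arrays deviate together is not settled. The replicate block gave Igj 0.27 between lesions and counts of 1, 0, 0, 156 and 158. The 7 columns, with a lone array for papilloma skin and for tumors, gave 0, 0, 0 and 350 for the first 4 counts, genes as the unit 31 for the stage difference and 559 lower in tumors, and no level minimum 260 between skins.

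Leaving out each array in turn, with a lone array assumed to vary like the other groups, gave Igj -0.77 to 0.28 between lesions, -0.63 to 1.32 between skins, -1.39 to 0.56 for the stage difference, -7.35 to -6.01 in papillomas and -8.10 to -6.15 in tumors. Between skins the ranges were -0.26 to 0.23 for Cd79a inner, -0.16 to 0.45 for Ms4a1, -0.63 to 1.40 for Pou2af1 and -0.28 to 1.84 for Blnk, and for the stage difference -1.99 to 0.043 for Pou2af1. Counts called ran from 25 (without tumor 1) to 306 (without tumor skin 2) between lesions, with 30 without tumor 2, 46 without papilloma 3, 89 without papilloma 1 and 155 without papilloma 2, from 0 to 9 between skins and from 0 to 4 for the stage difference whichever array was left out, from 360 (without papilloma skin 2) to 610 lower in papillomas, with 370 without papilloma 3, and from 168 (without tumor 2) to 885 lower in tumors, with 538 without tumor 1.

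The table and the scanner files rank probes differently for 4 of 9 columns, groups hold 2 or 3 arrays, and 3 arrays have a low spike-in slope. Differences near 0 between the stages are therefore not settled in direction, and dim probes such as Ms4a1 and the inner Cd79a probe carry little signal over background.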
